A study of Mus musculus with 14 samples.

Results

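The 31 genes described here encode the nuclear pore complex, sorted by subcomplex: the Y complex (9 genes), the inner ring (5), the central channel (4), the nuclear basket (4), the membrane ring (4) and the cytoplasmic face (5). They were taken by gene symbol from the 77981 genes of a count table of mouse liver tumours, and chosen with earlier results of these data known. All 31 passed the filter on low counts and were among the 13997 genes tested. Tumours had been induced by hydrodynamic injection, which forces plasmids into hepatocytes through the circulation, of plasmids carrying mouse c-Myc and β-catenin, and were taken at a diameter of 15 mm, at distress or at 8 weeks. The groups were 5 wild-type tumours (WT), 5 tumours from Cdk18 knockout mice (CDK18KO) and 4 tumours from Cdk16/Cdk18 double knockout mice (DKO), described as biological replicates. In the protocol that stands beside every sample, floxed Cdk16 was deleted in tumours already formed, by a Cre-ERT2 recombinase that tamoxifen switches on, with 75 mg/kg on 5 days and collection 10 days later. Cre-ERT2 controls received the same tamoxifen. The sources used here do not give which WT or CDK18KO animals carried Cre or received tamoxifen, nor the promoter that drives Cre-ERT2, the age of the animals, or the part of either gene that was removed. The series title places the nuclear pore at the centre of the study, in connection with DNA repair in hepatocellular carcinoma.

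The nuclear pore complex is the channel through which RNA, proteins and ribosomal subunits cross the nuclear envelope. The Y complex and the inner ring form its scaffold, membrane proteins anchor it, channel nucleoporins rich in phenylalanine-glycine repeats form the barrier, and basket and cytoplasmic proteins dock cargo and remodel messenger RNA on either side. In dividing cells the envelope and most pores come apart at mitosis and are rebuilt afterwards, and the pore also lies close to sites of DNA repair and of chromatin regulation.

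Cdk16 and Cdk18 encode the PCTAIRE kinases that the genotypes target. Cdk16 was at 49.1 ± 7.32 CPM (mean ± SD, n = 5) in WT, 40.6 ± 14.3 (n = 5) in CDK18KO and 30.8 ± 15.4 (n = 4) in DKO, and Cdk18 at 4.76 ± 3.58, 1.98 ± 1.06 and 1.90 ± 1.51. CPM are counts scaled to a common library size with TMM factors. The smallest edgeR adjusted p of either gene was 0.310, for Cdk16 in DKO against WT (log2 fold change -0.67, SE 0.35), and Cdk16 in DKO 3 (48.5 CPM) lay inside the WT range of 40.0 to 59.2. Library totals ran from 1442417 to 6068209 counts, of which the pore genes held 0.198 to 0.381%. Hepatocyte markers were present in every library but unevenly: 22 of the 24 listed were in the table, and their summed CPM ran from 156 to 4559 in WT, 1915 to 20374 in CDK18KO and 2124 to 29797 in DKO. Y-linked genes exceeded 100 CPM in WT 3, WT 5 and CDK18KO 1, and in no DKO library. These are bulk tissues, so fewer cells of a type and less RNA per cell cannot be told apart.

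The promoters shown are those of the 3 members with the smallest p values in DKO against WT and of the 2 with an unadjusted p under 0.05 in DKO against CDK18KO. Each runs from 250 bases before the annotated start to 50 after it, 5′ to 3′ on the gene's strand, from RefSeq on GRCm38.p6, which held a promoter for 27 of the 31 members. Capitals mark matches, on either strand, to the E-box CACGTG read by Myc, the cell cycle element CHR (TTTGAA), an E2F site (GGCGGGAA) or the core of an NRF1 site (CGCATGCG). No marked match overlaps another.
Pom121: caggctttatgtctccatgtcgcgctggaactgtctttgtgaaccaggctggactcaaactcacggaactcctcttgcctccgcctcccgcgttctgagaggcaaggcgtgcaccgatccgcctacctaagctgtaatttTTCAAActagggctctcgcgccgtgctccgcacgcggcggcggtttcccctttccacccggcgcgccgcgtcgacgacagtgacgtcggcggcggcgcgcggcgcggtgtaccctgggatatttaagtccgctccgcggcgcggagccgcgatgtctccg
Nup210: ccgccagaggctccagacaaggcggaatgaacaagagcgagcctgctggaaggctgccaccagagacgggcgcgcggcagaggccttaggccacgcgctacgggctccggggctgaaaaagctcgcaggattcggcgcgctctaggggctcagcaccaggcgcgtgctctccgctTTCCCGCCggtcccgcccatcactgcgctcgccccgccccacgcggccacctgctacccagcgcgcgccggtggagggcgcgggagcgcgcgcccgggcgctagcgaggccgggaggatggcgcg
Nup188: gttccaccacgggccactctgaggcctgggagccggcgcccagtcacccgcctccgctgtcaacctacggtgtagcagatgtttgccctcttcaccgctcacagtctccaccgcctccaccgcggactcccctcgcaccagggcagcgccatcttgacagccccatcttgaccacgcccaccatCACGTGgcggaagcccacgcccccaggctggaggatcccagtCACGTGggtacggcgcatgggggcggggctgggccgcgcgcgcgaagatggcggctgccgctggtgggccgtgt
Ndc1: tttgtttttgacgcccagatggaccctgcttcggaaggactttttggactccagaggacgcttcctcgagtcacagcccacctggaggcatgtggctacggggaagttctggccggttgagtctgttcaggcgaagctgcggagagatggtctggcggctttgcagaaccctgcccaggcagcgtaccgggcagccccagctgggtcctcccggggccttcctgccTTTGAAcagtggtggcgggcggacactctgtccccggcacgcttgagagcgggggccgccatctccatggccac
Nup50: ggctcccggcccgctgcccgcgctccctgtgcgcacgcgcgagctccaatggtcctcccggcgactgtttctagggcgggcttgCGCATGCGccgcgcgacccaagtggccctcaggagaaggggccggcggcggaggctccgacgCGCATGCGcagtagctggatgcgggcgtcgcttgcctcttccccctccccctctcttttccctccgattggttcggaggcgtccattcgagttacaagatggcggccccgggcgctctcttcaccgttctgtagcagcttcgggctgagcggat
Pom121 lies on the minus strand of chromosome 5 (promoter chr5:135394497-135394796) and holds a CHR match starting 110 bases before the start. Nup210 lies on the minus strand of chromosome 6 (chr6:91116777-91117076) with an E2F match at 75 bases. Nup188 lies on the plus strand of chromosome 2 (chr2:30286166-30286465) with E-boxes at 66 and 24 bases. Ndc1 lies on the plus strand of chromosome 4 (chr4:107367797-107368096) with a CHR match at 24 bases before the RefSeq start. GENCODE begins this gene at 107367784, so by that annotation the whole window lies inside the gene. Nup50 lies on the plus strand of chromosome 15 (chr15:84923178-84923477) with NRF1 matches at 166 and 104 bases. Among all 30 member promoters, the E-box was found in 13.3% (Nup188, Nup54, Nup93 and Ranbp2) against 7.15% of all 32851 mouse promoters. CHR was found in 23.3% of member promoters against 17.9% of all. The E2F letters stood in 6.67% (Nup133 and Nup210) against 2.19%, and the NRF1 letters in 10.0% (Nup107, Nup50 and Nup62) against 1.87%. These are letter matches in a fixed window, over few member promoters.

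Across the tumours the pore genes kept a wide order of tag levels. In this assay a read comes from the 3′ end of a transcript, so CPM are not divided by gene length. Tpr, which forms the filaments of the basket, had the highest median over the 14 libraries, 860.1 CPM, followed by the cytoplasmic filament protein Ranbp2 at 212, the cytoplasmic nucleoporin Nup88 at 154 and the membrane protein Tmem33 at 153. The lowest medians were those of the Y complex member Nup43 at 14.1 CPM, the cytoplasmic protein Aaas at 15.9, Nup98 at 29.1 and Nup210 at 31.1. Between Tpr and Ranbp2 the gap of 2.02 on the log2 scale exceeded the spread of either gene over libraries (SD 0.69 and 0.48), and the gap of 0.87 between Nup98 and Aaas exceeded theirs (0.71 and 0.39). Every other neighbouring pair in the order differed by 0.46 or less on the log2 scale, and no such gap exceeded the SDs of both genes. Tpr alone made up 12.9% of the summed pore CPM in WT 3 and 48.9% in CDK18KO 4. Without Tpr, the Y complex made up 22.2 to 33.8% of the pore total and the channel 8.3 to 11.6%.

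**Figure D1:**
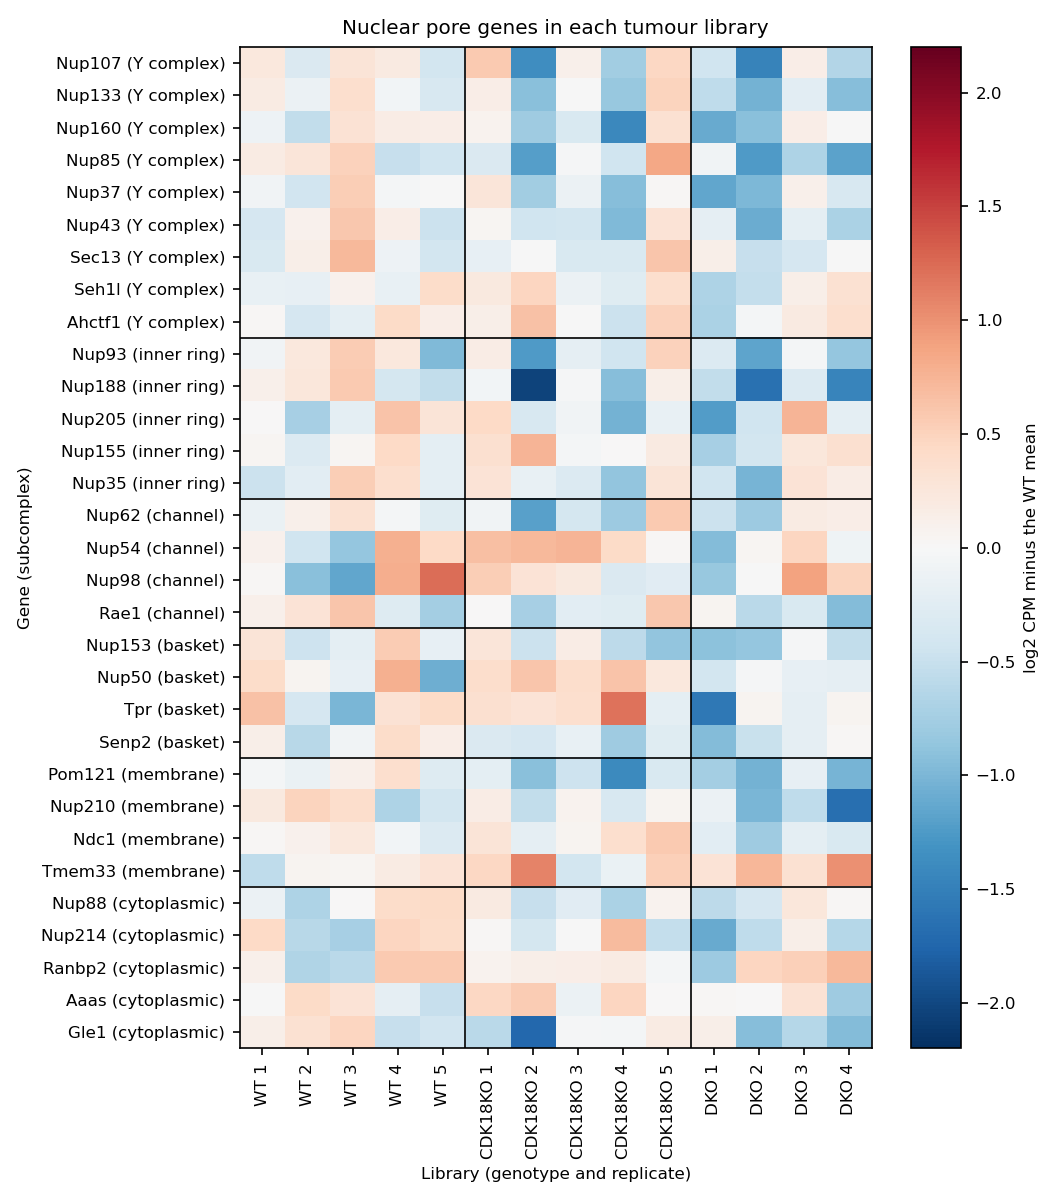
Log2 CPM of the 31 nuclear pore genes (rows, by subcomplex) in each of the 14 libraries (columns, by genotype), as the difference from the gene's WT mean. Most rows of DKO 1 and DKO 2 lie below the WT mean (median differences -0.56 and -0.60), while the median of DKO 3 is 0.12. The lowest value is Nup188 in CDK18KO 2 at -2.03.

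No pore gene changed past the threshold in any comparison, and the members lay mostly below WT in the double knockout. In DKO against WT, 29 of 31 pore genes were lower by any amount, Tmem33 and Ranbp2 being the other two, where 52.1% of all genes tested were lower. The median log2 fold change was -0.39 over the members and -0.04 over all genes, and the members ranged from -0.94 (Nup188) to 0.60 (Tmem33). In DKO against CDK18KO, 24 of 31 were lower against 51.8% of all genes, with medians of -0.29 and -0.02 and a member range of -0.76 (Tpr) to 0.24 (Ranbp2). In CDK18KO against WT, 21 of 31 were lower against 50.6% of all genes, with medians of -0.14 and -0.01 and a range of -0.63 (Pom121) to 0.44 (Nup54). The comparisons share groups, so they are not independent of each other.

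By edgeR's quasi-likelihood test at an adjusted p under 0.05, 0 of 31 members were called in CDK18KO against WT, where 0.00714% of all genes were called. In DKO against WT 0 of 31 were called, where 0.00714% of all genes were called, and in DKO against CDK18KO 0 of 31, where 0% of all genes were called. The 1 gene behind each of the first pair of shares was the complement gene C1rb, higher in the knockouts. DESeq2 also called 0 members in each comparison, with 5.52%, 6.31% and 0.715% of all genes called in the same order. At an unadjusted p under 0.05, 1 member was lower in CDK18KO against WT (5.31% of all genes), 2 were lower in DKO against WT (5.22%) and 2 were lower in DKO against CDK18KO (1.86%). None was higher, where 11.6%, 13.7% and 3.94% of all genes were. The edgeR adjusted p values of the members lay between 0.261 and 0.996, 0.194 and 0.995, and 0.670 and 0.999 in that order. The median SE was 0.32 to 0.34, and the 95% interval included 0 for 30, 29 and 29 of the 31 members. It included -1 for 7, 17 and 17 members. Groups did not overlap for 0 members in CDK18KO against WT (1.6% of all genes below and 1.1% above), for 1 member, above WT, in DKO against WT (2.46% below and 3.04% above) and for 2 members, below CDK18KO, in DKO against CDK18KO (0.722% below and 0.872% above).

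**Figure D2:**
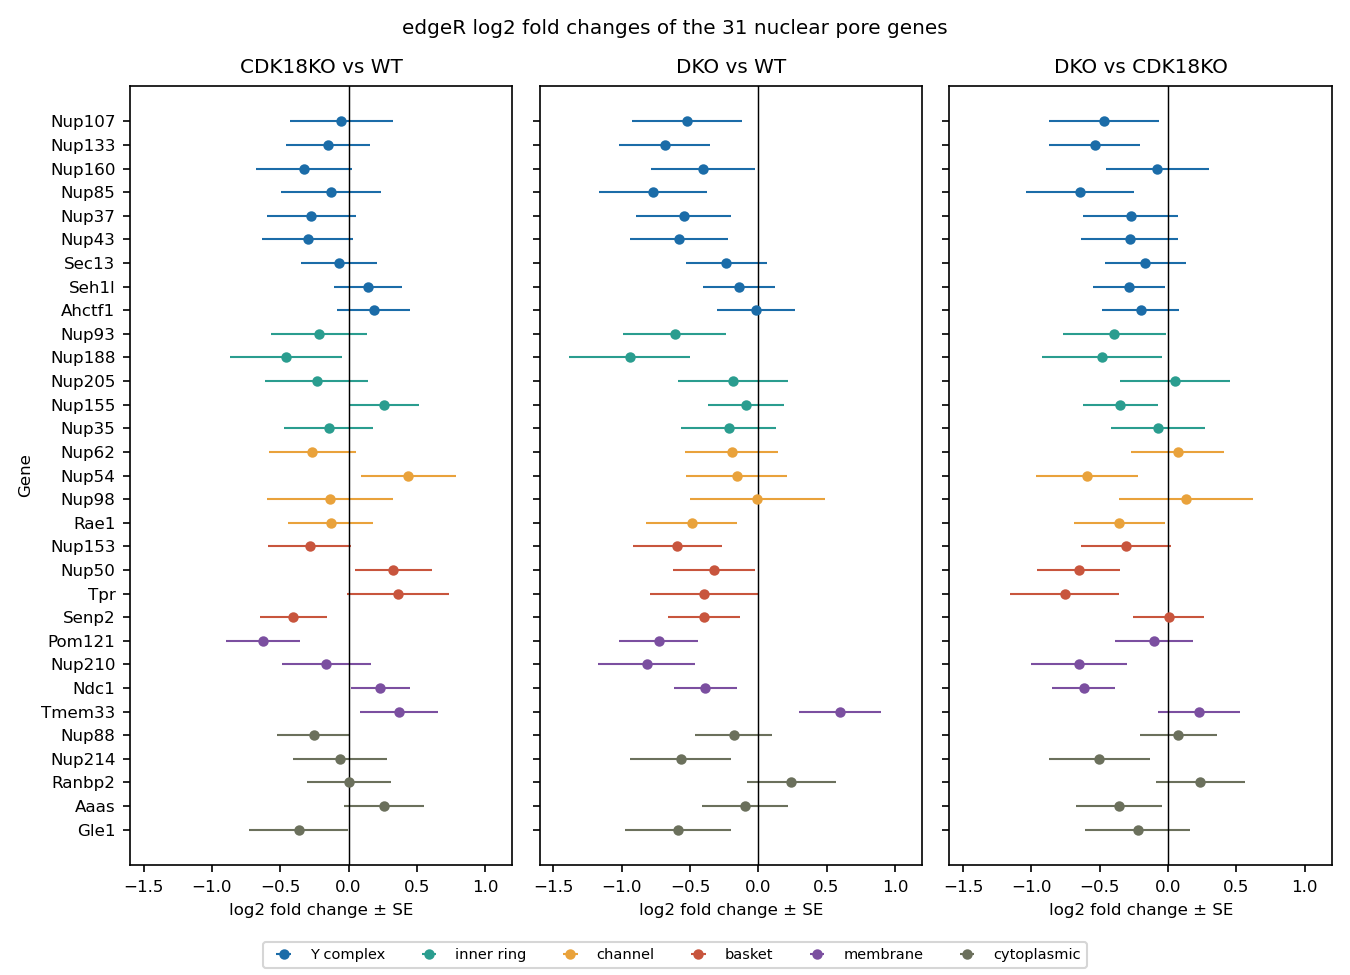
edgeR log2 fold change (x axis) with its SE for each of the 31 nuclear pore genes (y axis, coloured by subcomplex) in CDK18KO against WT, DKO against WT and DKO against CDK18KO. In the DKO against WT panel 29 points lie left of 0, from -0.94 for Nup188, and none of the 31 passed the threshold.

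The Y complex is the largest scaffold unit and is needed for building pores after mitosis. All 9 genes were lower in DKO than in WT (median -0.52), 9 of 9 were lower than in CDK18KO (median -0.28), and 7 of 9 were lower in CDK18KO than in WT (median -0.13), with none past the threshold. Nup85, in the short arm, was at 162, 170.1, 203, 99.6 and 104 CPM in WT 1 to 5, at 113, 60.6, 139, 105 and 258 in CDK18KO 1 to 5, and at 135, 59.7, 88.0 and 62.2 in DKO 1 to 4. It had the most negative value of the Y complex in DKO against WT (-0.77, SE 0.40, edgeR adjusted p = 0.305), DKO 1 lay above WT 4 and WT 5, and the highest level of all was in CDK18KO 5. Nup133, at the stem and in contact with membranes, averaged 38.3 ± 7.57 CPM in WT, 34.5 ± 14.3 in CDK18KO and 23.7 ± 6.40 in DKO (-0.69 against WT, SE 0.33, edgeR adjusted p = 0.282). Its libraries were 43.0, 34.5, 48.6, 35.9 and 29.3 CPM in WT 1 to 5 and 25.4, 18, 32 and 19.5 in DKO 1 to 4, with DKO 3 above WT 5. Nup107, its stem partner, averaged 82.4 ± 18, 79.3 ± 39.1 and 57.2 ± 24.9 CPM in WT, CDK18KO and DKO. The peripheral subunits Nup37 and Nup43 averaged 46.7 ± 12.2 and 18.2 ± 5.78 CPM in WT and 32 ± 13.5 and 12.1 ± 3.52 in DKO. Nup160 averaged 62.3 ± 13.5 CPM in WT, 49.6 ± 22.1 in CDK18KO and 47.0 ± 19.8 in DKO. The remaining 3 members were those closest to WT in DKO. Sec13, also a coat protein of vesicles leaving the endoplasmic reticulum, differed by -0.23 (SE 0.30) in DKO against WT, Seh1l, also part of a complex upstream of mTORC1, by -0.14 (SE 0.27), and Ahctf1 (ELYS), which seeds pores on chromatin, by -0.02 (SE 0.28).

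The inner ring binds the membrane, the Y complex and the channel proteins. All 5 genes were lower in DKO than in WT (median -0.22), with a spread from Nup188 at -0.94 to Nup155 at -0.09. Nup188, a large scaffold subunit, was at 58.6, 64.8, 80.9, 41.6 and 37.0 CPM in WT 1 to 5, at 51.9, 12.8, 53.4, 28.1 and 59.8 in CDK18KO 1 to 5 and at 37.1, 16.9, 44.0 and 19.5 in DKO 1 to 4. DKO 2 and DKO 4 lay below every WT library, DKO 1 and DKO 3 did not, and the lowest level was in CDK18KO 2. Its log2 fold change in DKO against WT was -0.94 (SE 0.44, unadjusted p = 0.0513, edgeR adjusted p = 0.267), and -0.46 (SE 0.41) in CDK18KO. Nup93, which holds the inner ring to its partners, averaged 126 ± 42.8 CPM in WT, 108 ± 44.8 in CDK18KO and 82.2 ± 28.5 in DKO. Nup205, the paralogue of Nup188, differed by -0.18 (SE 0.40) in DKO, and DKO 3 held its highest level of all libraries, 120.1 CPM. Nup155, a membrane-binding subunit, averaged 92.0 ± 19.2, 110.2 ± 26.1 and 86.5 ± 29.9 CPM in the order WT, CDK18KO, DKO, and Nup35 48.3 ± 15.0, 43.7 ± 13.7 and 41.5 ± 16.1.

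Channel genes had a median of -0.18 in DKO against WT (4 of 4 lower), and 2 of 4 were higher in DKO than in CDK18KO. Nup62, the core of the channel, averaged 87.8 ± 14.4 CPM in WT, 73.1 ± 35.7 in CDK18KO and 76.7 ± 24.5 in DKO. Nup54, its partner, stood highest in CDK18KO at 40.8 ± 8.02 CPM, against 30.2 ± 13.3 in WT and 27.0 ± 10.3 in DKO (0.44 in CDK18KO against WT, SE 0.35). Nup98, whose gene also encodes the Y complex protein Nup96, was at 27.1, 13.7, 11.6, 47.0 and 63.3 CPM in WT 1 to 5, so the WT libraries spanned all CDK18KO and DKO libraries (14.6 to 49.5), and it differed by -0.01 (SE 0.49) in DKO. Rae1, the mRNA export factor that binds Nup98, averaged 93.0 ± 31.9 CPM in WT, 85.0 ± 30.4 in CDK18KO and 66.3 ± 20.2 in DKO (-0.49, SE 0.33).

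The basket faces the nucleoplasm and tethers chromatin and the desumoylating enzyme Senp2. Its genes had a median of 0.02 in CDK18KO against WT, -0.40 in DKO against WT and -0.48 in DKO against CDK18KO. Nup50, which helps importins release their cargo, was at 105, 82.2, 69.9, 137 and 37.0 CPM in WT 1 to 5, at 103, 121, 103, 123 and 92.2 in CDK18KO 1 to 5 and at 59.7, 77.8, 69.6 and 68.4 in DKO 1 to 4. Every DKO library lay below every CDK18KO library, while WT spanned both groups. The difference of DKO from CDK18KO was -0.65 (SE 0.30, unadjusted p = 0.0484, edgeR adjusted p = 0.845) and did not pass the threshold. Tpr was at 1181, 579, 373, 936 and 1009 CPM in WT 1 to 5, at 960.4, 932, 973, 1730.5 and 651 in CDK18KO 1 to 5 and at 253, 781, 659.6 and 789 in DKO 1 to 4. DKO 1 held the lowest level and CDK18KO 4 the highest, and the groups overlapped (-0.76 in DKO against CDK18KO, SE 0.40, unadjusted p = 0.0795, edgeR adjusted p = 0.921). Without CDK18KO 4 that value was -0.50. Senp2 was at 121, 71.2, 104, 145 and 122 CPM in WT 1 to 5 and at 87.9, 85.1, 97.8, 63.7 and 90.8 in CDK18KO 1 to 5, a difference of -0.40 (SE 0.25, unadjusted p = 0.122, edgeR adjusted p = 0.420). WT 2 lay among the CDK18KO libraries, and DKO averaged 85.4 ± 23.9 CPM. Nup153, which anchors the basket and binds Tpr, averaged 43.7 ± 13.1 CPM in WT, 35.8 ± 12.4 in CDK18KO and 28.9 ± 8.84 in DKO (-0.59 against WT, SE 0.33).

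Membrane genes differed among themselves: Pom121, Nup210 and Ndc1 lay below WT in DKO, and Tmem33 lay above. Pom121, a transmembrane nucleoporin needed for pore assembly in the intact envelope (chr5:135376141-135394546), was at 90.1, 83.5, 99.8, 120.1 and 75.6 CPM in WT 1 to 5, at 79.8, 48.4, 67.1, 34.7 and 73.7 in CDK18KO 1 to 5 and at 54.6, 44.5, 81.9 and 45.0 in DKO 1 to 4. Of the knockout libraries, only CDK18KO 1 and DKO 3 lay above the lowest WT library, WT 5. Pom121 differed by -0.63 (SE 0.27, unadjusted p = 0.036, edgeR adjusted p = 0.261) in CDK18KO against WT and by -0.73 (SE 0.29, unadjusted p = 0.0247, edgeR adjusted p = 0.194) in DKO against WT. Between DKO and CDK18KO it differed by -0.10 (SE 0.29). Nup210 (gp210), a membrane nucleoporin with cell-type-dependent expression, was at 42.6, 51.7, 48.0, 22.7 and 27.8 CPM in WT 1 to 5, at 41.3, 25.0, 38.8, 28.7 and 38.5 in CDK18KO 1 to 5 and at 33.4, 18, 24.6 and 11.1 in DKO 1 to 4. DKO 2 and DKO 4 lay below every WT library, and the difference from WT was -0.82 (SE 0.35, unadjusted p = 0.0354, edgeR adjusted p = 0.227).

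Ndc1, a transmembrane anchor of the pore, was at 54.9, 58.0, 63.5, 51.7 and 44.0 CPM in WT 1 to 5, at 66.2, 46.8, 56.2, 70.0 and 80.6 in CDK18KO 1 to 5 and at 46.0, 31, 46.6 and 42.8 in DKO 1 to 4. The DKO libraries lay below all CDK18KO libraries, the highest DKO library by a narrow margin, and WT 5 lay below DKO 1 and DKO 3. The difference of DKO from CDK18KO was -0.62 (SE 0.23, unadjusted p = 0.0187, edgeR adjusted p = 0.670). Tmem33, a membrane protein of the endoplasmic reticulum and nuclear envelope (chr5:67260565-67291461), went the other way. It was at 83.8, 128, 127, 139.6 and 152 CPM in WT 1 to 5, at 169, 264, 93.5, 112 and 177 in CDK18KO 1 to 5 and at 153, 206, 156 and 248 in DKO 1 to 4. Every DKO library lay above every WT library, though DKO 1 (153.4 CPM) exceeded WT 5 (152.0 CPM) by a narrow margin. The difference was 0.60 (SE 0.30, unadjusted p = 0.066, edgeR adjusted p = 0.296). In CDK18KO against WT it was 0.37 (SE 0.28, edgeR adjusted p = 0.530), and -0.01 when the hepatocyte marker level was added to the fit, where the DKO difference was 0.13. With the level of G2 and mitosis genes added instead, the CDK18KO and DKO differences from WT were 0.38 and 0.47. With the Y-linked level they were 0.51 and 0.83.

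**Figure D3:**
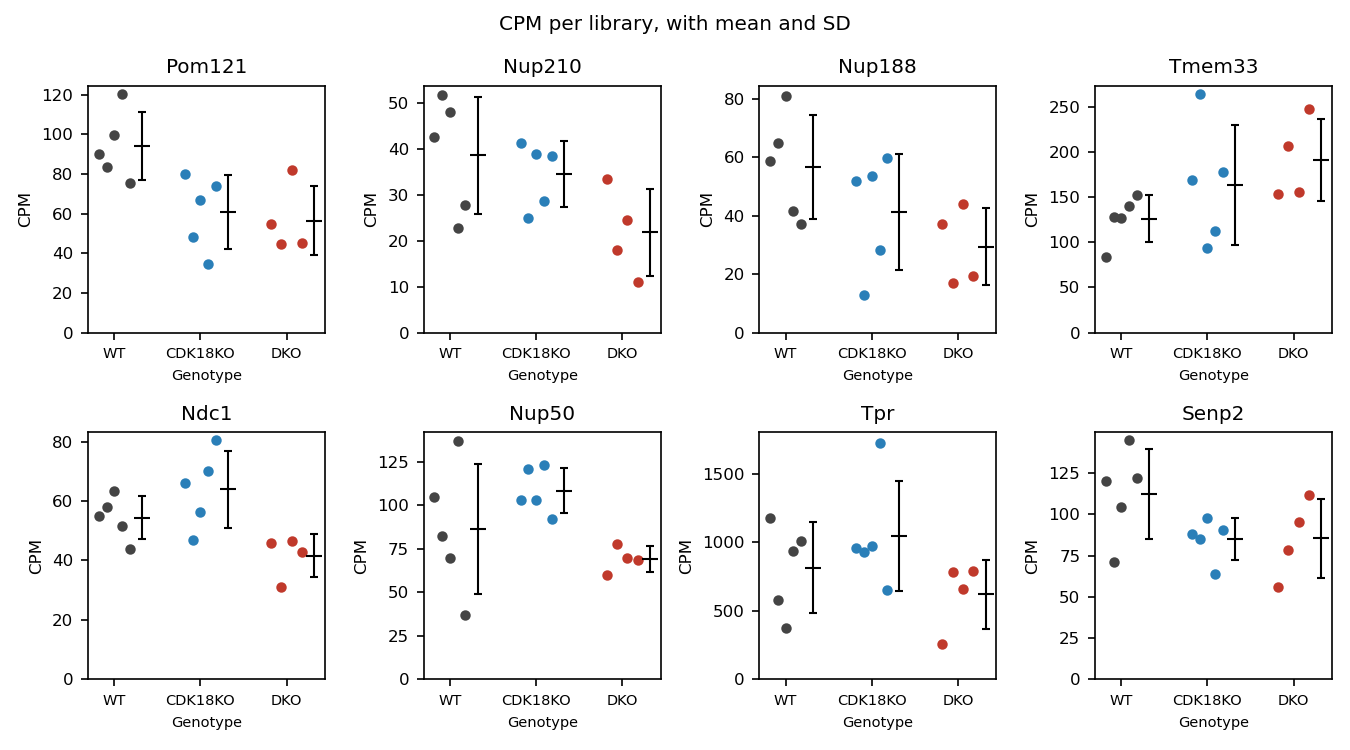
CPM (y axis, linear and starting at 0) of 8 nuclear pore genes in each library, as points by genotype, with the group mean and SD beside them. Tmem33 is the gene whose DKO points all lie above the WT points, and the DKO points of Ndc1 and Nup50 all lie below the CDK18KO points. For Tmem33 and Ndc1 the margin is narrow.

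The cytoplasmic genes act where exported RNA is remodelled. Their medians were -0.06, -0.18 and -0.22 in CDK18KO against WT, DKO against WT and DKO against CDK18KO. Ranbp2 (Nup358), the SUMO ligase of the cytoplasmic filaments, averaged 206 ± 81.1 CPM in WT, 207 ± 11.8 in CDK18KO and 243 ± 90.9 in DKO, and DKO 1 was at 111 CPM with the other DKO libraries at 268 to 316. Nup88 averaged 167 ± 48.0, 139.6 ± 36.1 and 147 ± 37.8 CPM, and Nup214, its partner in mRNA export, 54.4 ± 20.6, 51.8 ± 18.9 and 36.6 ± 13.9 CPM, in the order WT, CDK18KO, DKO. Gle1, which activates the helicase that strips mRNA of export factors, averaged 56.8 ± 16.8, 44.1 ± 18.3 and 37.7 ± 15.1 CPM, and Aaas (ALADIN), held to the pore by Ndc1, 16.1 ± 4.28, 19.5 ± 4.13 and 15.1 ± 4.52 CPM. None of these 5 reached an unadjusted p under 0.05 in any comparison.

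Other genes of the pore and its transport pathway were read from lists. Of 8 additional pore genes, 3 were tested (Nup42 and the mRNA export helicases Ddx19a and Ddx19b), with a median of -0.33 in DKO against WT, and none was called. Of the importins, exportins and Ran cycle genes, 30 of 31 were tested. In DKO against WT 28 were lower (52.1% of all genes), with a median of -0.32, and 3 were lower at an unadjusted p under 0.05 (5.22% of all genes). None was called by edgeR, and DESeq2 called 1, Ipo9 (adjusted p = 0.0235). Ipo9, an importin for histones, was at 30.8 ± 3.40 CPM in DKO against 48.7 ± 1.70 in WT (-0.66, SE 0.21, edgeR adjusted p = 0.147). Ranbp1, a Ran cofactor, was at 128 ± 24.5 against 212 ± 46.4 CPM (-0.73, SE 0.27, edgeR adjusted p = 0.166). In CDK18KO against WT the transport list had 19 of 30 lower (median -0.11), and Tnpo2 and Ipo9 had the smallest p values (-0.44, SE 0.23, adjusted p = 0.349, and -0.38, SE 0.20, adjusted p = 0.344). For DKO against CDK18KO 25 of 30 were lower (median -0.25), and the smallest p values were those of Tnpo3 (-0.46, SE 0.24) and Ranbp1 (-0.52, SE 0.27), with edgeR adjusted p = 0.910 and 0.911. Lamina and envelope genes, which hold the membrane the pores sit in, had medians of -0.08, -0.17 and -0.12 over 17 genes in the 3 comparisons, with 10, 10 and 11 lower. At an unadjusted p under 0.05, 2 of the 17 were higher in CDK18KO than in WT, near the share over all genes of 11.6%: Tor1a and Tor1aip2, a torsin and a torsin cofactor (0.77, SE 0.32, and 0.56, SE 0.23, edgeR adjusted p = 0.248 and 0.226). In DKO against WT 1 of 17 was higher at that p (13.7% of all genes): Tor1aip1, another torsin cofactor (0.64, SE 0.26, edgeR adjusted p = 0.200), with Tor1aip2 at 0.49 (SE 0.24, edgeR adjusted p = 0.276). Between DKO and CDK18KO the smallest p values were those of Banf1 (-0.47, SE 0.29) and Lemd3 (0.54, SE 0.35), with edgeR adjusted p = 0.968 and 0.981.

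The pore genes were not evenly low over the DKO libraries. As the mean log2 CPM of the 31 genes, WT 1 to 5 read 6.16, 5.96, 6.21, 6.30 and 6.02, CDK18KO 1 to 5 read 6.28, 5.78, 6.07, 5.77 and 6.30, and DKO 1 to 4 read 5.57, 5.53, 6.15 and 5.81. DKO 3 lay within the WT range, the other DKO libraries lay below it, and CDK18KO 2 and CDK18KO 4 were low too. DKO 3 was the highest DKO library for 17 members and the lowest for 0, while DKO 1 was the lowest for 16 and DKO 2 for 11. Leaving out DKO 1 or DKO 2 gave a member median of -0.26 or -0.29 in DKO against WT, and leaving out DKO 3 gave -0.47. The DKO against CDK18KO median, -0.29, became -0.18 when CDK18KO 5 or DKO 2 was left out and -0.44 when DKO 3 was. The CDK18KO against WT median, -0.14, became -0.24 or -0.23 when CDK18KO 1 or CDK18KO 5 was left out, -0.07 when WT 3 was, and -0.05 when either CDK18KO 2 or CDK18KO 4 was.

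G2 and mitosis genes, a list of 30 cell division genes, were likewise lowest in DKO 1 and DKO 2 and highest in DKO 3 among the DKO libraries. Their mean log2 CPM was 5.39, 5.39, 6.48 and 6.1 in DKO 1 to 4, against 6.20 to 6.78 in WT and 6.26 to 6.86 in CDK18KO. In DKO against WT 30 of 30 were lower (median -0.61), where 52.1% of all genes were, and 9 of them at an unadjusted p under 0.05, against 5.22% of all genes. By edgeR 0 were called and by DESeq2 1, Cenpe (adjusted p = 0.033). The smallest edgeR p values were those of Cenpe, a kinetochore motor, at -1.17 (SE 0.35, edgeR adjusted p = 0.146) and Cdc20, an activator of the anaphase-promoting complex, at -0.96 (SE 0.37, edgeR adjusted p = 0.185). Against CDK18KO, too, 30 of 30 were lower in DKO (median -0.69), 12 of them at an unadjusted p under 0.05 (1.86% of all genes), with the smallest p values for Hmmr at -1.01 (SE 0.31, edgeR adjusted p = 0.470) and Kif20a at -1.13 (SE 0.38, edgeR adjusted p = 0.579). For CDK18KO against WT 11 of 30 were lower (median 0.10), with Kif20a at 0.60 (SE 0.35) and Cdk1 at 0.37 (SE 0.26), edgeR adjusted p = 0.400 and 0.494.

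With the mean level of the G2 and mitosis list in the fit, the pore median was 0.07 in DKO against WT (15 of 31 lower) and 0.02 in DKO against CDK18KO (13 lower), and stayed at -0.14 in CDK18KO against WT. With the mean hepatocyte marker level in the fit it was -0.08 (16 lower), -0.21 (21 lower) and 0.17 (10 lower) in the same order. With the Y-linked level in the fit it was -0.20 (22 lower), -0.26 (22 lower) and -0.02 (17 lower). Among single members in DKO against WT, Nup210 was at -0.95, -0.73 and -0.83 with the G2 and mitosis, hepatocyte and Y-linked levels, Pom121 at -0.23, -0.24 and -0.58, and Nup188 at -0.54, -0.36 and -0.84. In DKO against CDK18KO, Ndc1 was at -0.50, -0.58 and -0.62 and Nup50 at -0.58, -0.61 and -0.80. None of the 31 members was called in these fits. The G2 and mitosis level itself averaged 6.51 in WT, 6.56 in CDK18KO and 5.84 in DKO as mean log2 CPM. Summed Y-linked CPM had medians of 33.0, 2.66 and 0.99 in the same groups. The fits with these levels therefore cannot fully tell them and genotype apart.

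Markers of other cell types varied in level too. The DKO libraries lay above all others for neutrophil and for B and plasma cell markers, and the other ranges overlapped. Of the markers tested, edgeR called none in any comparison, and DESeq2 called some. Summed CPM in WT, CDK18KO and DKO were 42.8 to 294, 8.07 to 101 and 396 to 587 for neutrophil markers. For B and plasma cell markers they were 2.60 to 9.26, 1.321 to 8.70 and 35.6 to 134. Erythroid markers were at 562 to 2673, 538 to 1935 and 1746 to 10322, and macrophage markers at 113 to 371, 99.4 to 280 and 161 to 914. Endothelial markers were at 68.4 to 101, 27.1 to 181 and 61.7 to 222, and stellate cell and fibroblast markers at 552 to 1491, 56.8 to 1008 and 560.04 to 1315. Cholangiocyte markers were at 165 to 414, 34.0 to 302 and 148 to 559, and T and NK cell markers at 0 to 5.40, 1.86 to 7.44 and 1.94 to 20.8, with none of the latter tested. Of the cell type markers, only the hepatocyte level was put in a fit. Its mean log2 CPM was 4.22 in WT, 6.91 in CDK18KO and 7.88 in DKO. That fit therefore cannot fully tell hepatocyte level and genotype apart. The part of the other cells in the pore differences was not tested.

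**Figure D4:**
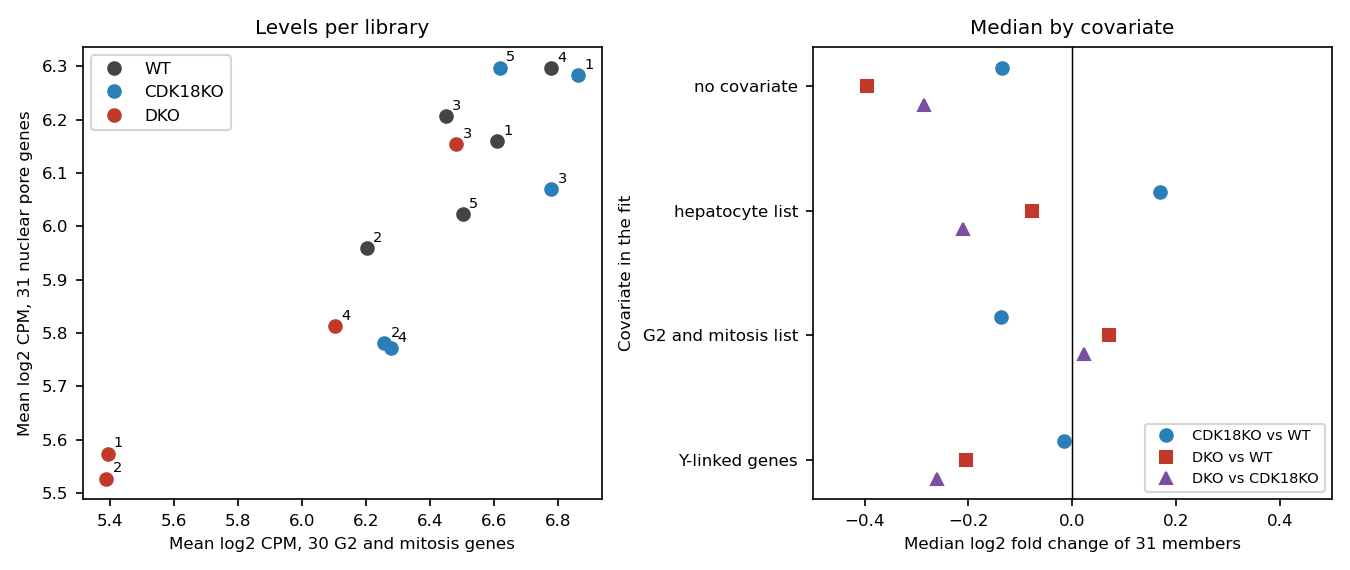
Left, mean log2 CPM of the 31 nuclear pore genes (y axis) against that of the 30 G2 and mitosis genes (x axis), 1 point per library by group. Right, median log2 fold change of the pore genes (x axis) for the 3 comparisons in the fit as reported and with the hepatocyte, G2 and mitosis or Y-linked level added, where the DKO against WT median goes from -0.39 to -0.08, 0.07 and -0.20.

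Within genotypes, the RNA levels of some partner subunits were correlated over the libraries and others were not past the threshold. For 8 pairs of proteins known to touch in the pore, log2 CPM were centred on each group's mean and correlated over the 14 libraries, with two-sided permutation p values from 100000 permutations, adjusted over the 8 pairs. Libraries were shuffled across genotypes, and the p values do not allow for the centring, so they may be too small. The pairs come from textbook contacts but were listed after the levels had been seen. The stem partners Nup107 and Nup133 had r = 0.92 and rho = 0.96 (permutation p = 1e-05 each, the smallest the permutations can give, adjusted p = 8e-05), and r = 0.92 without the 2 most extreme libraries. Nup93 and Nup188 had r = 0.89 and rho = 0.93 (permutation p = 3e-05 and 2e-05, adjusted p = 0.00012 and 8e-05), and 0.85 without CDK18KO 2 and WT 5. Nup98 and Rae1 ran against each other, with r = -0.72 and rho = -0.68 (permutation p = 0.00398 and 0.0093, adjusted p = 0.0106 and 0.0248), and -0.55 without WT 3 and WT 5. The sign was negative within each genotype (-0.97, -0.38 and -0.61 in WT, CDK18KO and DKO). Among all pairs of tested genes, 0.0813% had an r at least as high as Nup107 with Nup133 and 0.235% at least as high as Nup93 with Nup188. An r at least as low as that of Nup98 with Rae1 was found in 2.52%. These shares count pairs of the same sign only, unlike the two-sided permutation p values. The other 5 pairs did not pass: Nup160 with Nup85 (r = 0.22, rho = 0.12, permutation p = 0.444 and 0.681), Nup93 with Nup205 (r = 0.14, rho = 0.14, permutation p = 0.638 and 0.635), Nup62 with Nup54 (r = -0.23, rho = -0.21, permutation p = 0.436 and 0.464), Nup214 with Nup88 (r = 0.35, rho = 0.33, permutation p = 0.214 and 0.253) and Nup153 with Tpr (r = 0.37, rho = 0.33, permutation p = 0.197 and 0.254). Without the 2 most extreme libraries of the first gene, their r was 0.45, 0.29, -0.02, 0.65 and 0.39. Over all 465 pairs of members the median r was 0.21, with 153 above 0.5 and 34 below -0.5. Pairs outside the 8 reached similar values, among them Nup54 with Nup98 (0.91), Nup85 with Rae1 (0.91) and Nup188 with Nup133 (0.90). Some of these cross subcomplexes, so a high r was not particular to the listed partners.

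**Figure D5:**
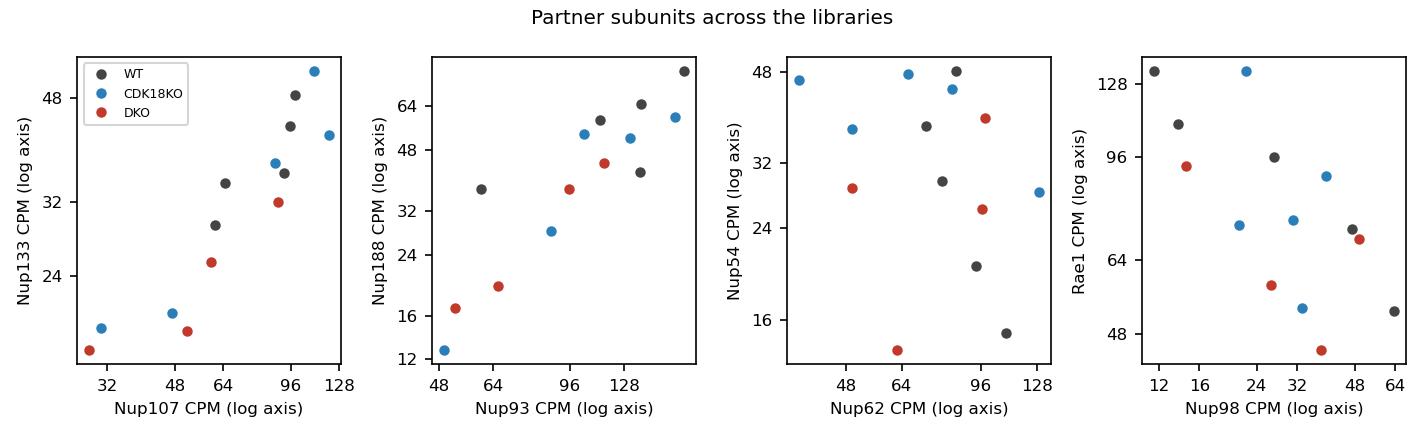
CPM (log axes) of 4 pairs of partner subunits over the 14 libraries, coloured by group. Nup107 with Nup133 and Nup93 with Nup188 go up together (r = 0.92 and 0.89 after centring by group), Nup62 with Nup54 do not (-0.23), and Nup98 and Rae1 run against each other (-0.72).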

How the data were processed

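The deposited file holds raw counts per gene symbol for 14 libraries. Per the labels' protocols, a directional 3′ messenger RNA kit with oligo-dT priming and 6-base molecular identifiers was used. HTSeq 1.99.2, STAR 2.7.11a, UMI-tools 1.1.2, FastQC and, at 1.32.0, DESeq2 are the tools named in the submitters' processing notes, which list mm10 and GRCh38 without a role. Not given in the sources used here are the annotation counted and whether reads were collapsed by identifier. Counts are treated as reads. The SEs and p values of the fits carry the spread between libraries within groups as well as counting error. Unused sample columns numbered 0.

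The counts were tested with edgeR 4.0.16 (quasi-likelihood F test, TMM factors, filter by group, all 14 libraries in 1 fit, two-sided) in R 4.3.3, with Benjamini-Hochberg adjustment over 13997 genes and calls at an adjusted p under 0.05. Each SE was taken as the absolute log2 fold change over the root of its F. The pipeline was tested on simulated data. Log2 CPM used a prior count of 2. Alternatives were DESeq2 1.42.0, other factors and filters, a robust fit, limma 3.58.1 voom, only the pair of groups compared, a replicate block, covariates, leaving out libraries above 100 CPM of Y-linked genes and leaving out each library in turn. Total counts were 1442417 to 6068209 per library, and no library pair was identical. Members, lists (pore, transport, lamina, G2 and mitosis, Y-linked and cell type markers), pairs and tests were chosen with earlier results of these data known. Statistics are given for members with an unadjusted p under 0.05, or the 3 with the smallest p where fewer reached it, and for up to 2 genes of the transport, lamina and mitosis lists. Other members quoted with statistics were chosen after their values were seen. Gene positions come from GENCODE on GRCm38. There, 8 members overlap another gene on the same strand and 14 on the opposite strand, and for Ahctf1 (Kif28) and Nup62 (Il4i1) a same-strand gene covers the 3′ end, so their counts are less certain. The labels' protocols describe the library as stranded, and the counting setting used is not stated separately. On the opposite strand, another gene covers the 3′ end of Pom121 (Nsun5), Tpr (Prg4), Nup133, Nup214, Nup88, Nup43 and Seh1l. Their counts are less certain too if strand was ignored in counting.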

Additional observations from a re-analysis of the deposited data

Results flagged for a closer look

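Sec13, the coat protein that the Y complex shares with vesicles of the secretory pathway, stood at 81.55 CPM in CDK18KO 5, apart from the other 4 CDK18KO libraries, of which the next highest was at 52.65. The gap to that library was 0.729 of the range of the group's 5 libraries. Of 93 combinations of a member and a group examined this way, 1 stood apart, where chance gives about 1 in 20. CDK18KO 5 was also the highest CDK18KO library for Nup85 (258 CPM), Rae1 (134), Nup133 (53.3) and Gle1 (62.1).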

How the results depend on the processing

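No nuclear pore gene was called under any alternative or with any library left out, and the member medians kept their sign except in the covariate fits named here. The DKO against WT member median was -0.078 (same sign) with the hepatocyte level and 0.070 with the G2 and mitosis level in the fit, and the DKO against CDK18KO median was 0.023 with the latter. With the hepatocyte level the CDK18KO against WT median was 0.17, and Tmem33 there turned to -0.0058. Upper-quartile factors moved the median of all genes to -0.13 in CDK18KO and -0.16 in DKO against WT, and the member medians to -0.25 and -0.51. Leaving out 1 library gave member medians of -0.24 to -0.05, -0.47 to -0.26 and -0.44 to -0.18 in CDK18KO against WT, DKO against WT and DKO against CDK18KO, with 17 to 22, 23 to 29 and 21 to 29 of 31 lower. With 1 library left out, Cdk18 in DKO against CDK18KO, otherwise -0.02, ran from -0.67 to 0.27, and with the G2 and mitosis level in the fit it was -0.74.

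Counts of all genes called depended on the setting, and the cause was not tested. In CDK18KO against WT, where 1 was called, the count was 942 by DESeq2, 173 without a filter, 1455 with the G2 and mitosis level, 2 with the hepatocyte level, and 0 with the robust fit, voom, only the 2 groups, the Y-linked level or without high Y-linked libraries. In DKO against WT, also 1, it was 1034 by DESeq2, 252 without a filter, 3 with the G2 and mitosis level, 2 with the hepatocyte level, and 0 with voom, only the 2 groups, the Y-linked level or without high Y-linked libraries. In DKO against CDK18KO, where 0 were called and 260 lower and 552 higher genes passed an unadjusted p under 0.05, it was 127 by DESeq2, 42 without a filter and 354 with the G2 and mitosis level. Leaving out 1 library gave 0 to 74 (74 without CDK18KO 1), 0 to 1 and 0 to 2. By DESeq2 Cenpe and Ipo9 passed in DKO against WT (adjusted p = 0.033 and 0.0235). With the replicate number as a block, 297 genes were called in CDK18KO against WT and 438 in DKO against WT, and no pore gene. The labels do not say whether equal replicate numbers pair the samples. Of 13 same-numbered pairs, 6 had a correlation over 0.1 (-0.23 to 0.65), and 3 of 14 libraries correlated best with their own number. Such correlations cannot settle whether same-numbered samples were paired. The median SE of a single member's difference was 0.32 to 0.34.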

Other observations

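The pore genes split by library within genotypes, a pattern picked out after the values were seen and given with no test. WT 3 was the highest WT library for 14 members, among them Nup107, Nup133, Nup85, Sec13, Nup93, Nup188, Nup62, Rae1, Ndc1 and Gle1, and the lowest for 4: Tpr (373 CPM), Nup98 (11.6), Nup54 (15.1) and Nup214 (30.6). CDK18KO 5 was the highest CDK18KO library for 11 members, including Nup85 (258 CPM), Sec13 (81.6), Nup188 (59.8), Rae1 (134) and Gle1 (62.1), and the lowest for 6: Nup54 (28.3), Nup153 (22.7), Nup50 (92.2), Tpr (651), Nup214 (35.2) and Ranbp2 (187). In DKO 1 the 6 members that were highest of their group were Nup85, Nup43, Sec13, Rae1, Nup210 and Gle1, and Tpr (253 CPM), Nup54 (14.0), Nup98 (14.6), Nup214 (23.1) and Ranbp2 (111) were among the 16 that were lowest. WT 5 showed the opposite order for part of these sets, with Nup98 (63.3) and Ranbp2 (287) at their WT maximum and Sec13 (40.1), Rae1 (52.5) and Nup188 (37.0) at their WT minimum. Other members did not follow: Tpr was highest in WT 1, Nup54 and Nup214 were highest in WT 4, and Nup85 and Gle1 were lowest in WT 4. The members of these sets cross the subcomplexes: Rae1 and Nup98, both of the channel, sat at opposite ends in WT 3, WT 5 and DKO 1.

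Nup58, a channel partner of Nup62 and Nup54, and Pom121l2 were listed at 0 counts in every library. The annotation counted is not given, and whether Nup58 RNA was absent or its reads were not assigned to that symbol was not tested. Nup210l, a paralogue of Nup210, held 2 counts in all WT libraries, 1 in CDK18KO and 0 in DKO. Ddx19a and Ddx19b averaged 118 ± 40.2 and 43.8 ± 6.12 CPM in WT, 90.7 ± 25.0 and 33.9 ± 9.73 in CDK18KO and 93.7 ± 33.3 and 30.6 ± 4.31 in DKO. These 2 genes are close paralogues, and the split of reads between them is uncertain.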
